A study of Mus musculus with 3 samples.

Results

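The variable (V) gene segments of the T-cell receptor loci were examined in mouse Th1 (T helper 1) cells, a class of CD4 T cells known for making interferon gamma. The members were all genes whose symbol, matched from the deposited gene identifier, is Trav, Trbv, Trgv or Trdv followed by a digit. This gave 170 of the 50600 genes in the count tables: 128 alpha segments and 6 delta segments on chromosome 14, 35 beta segments on chromosome 6 and 1 gamma segment on chromosome 13. The annotation types 136 of them as V genes, called functional here, and 34 as pseudogenes, of which 20 are alpha, 13 beta and 1 delta. Another 6 gamma V genes carry older Tcrg-V symbols that the rule does not take in, and all 6 had 0 counts in every library. RNA sequencing of primary cells from strain C57BL/6NJ gave 3 libraries of 1 group, labelled biological replicates 1, 2 and 3. A time of 48 h is given in the file headers, and the labels name no treatment beyond a linked differentiation protocol. The labels record no sex and no age, and give the same donor identifier to all 3 libraries without saying whether separate animals or cultures were used. The assay is labelled total RNA, while the linked library protocol is titled for poly(A)+ RNA.

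A T-cell receptor chain is encoded by a V segment joined to a joining (J) segment, in beta and delta with a diversity (D) segment between them, and spliced to a constant region. Each alpha-beta T cell keeps the receptor it assembled in the thymus, so the V segments transcribed in a population of T cells reflect the receptors its clones carry. Antigen contact by loops encoded in part by the V segment sets the specificity of the receptor, and the V segments are therefore often used to describe how mixed a T-cell population is. In bulk RNA, fewer cells using a segment and less receptor RNA per cell cannot be told apart.

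The libraries differed in depth before any result is read. Replicate 1 held 4742025 counts, replicate 3 held 3543816 and replicate 2 only 50627. Levels are given as CPM, the count scaled to the library total. The level of 3 counts, used as the limit for a count of 0, was 0.633 CPM for replicate 1, 59.3 for replicate 2 and 0.847 for replicate 3. This limit is lower than the upper end of the two-sided exact interval of a count of 0, which is 0.778, 72.9 and 1.04 CPM in replicates 1, 2 and 3. Intervals given below are exact 95% intervals, and intervals and limits cover counting error only. With 1 group there was no contrast between conditions. Any p-value given here therefore reflects how far these libraries lie apart, and that distance may be technical.

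The coding end of a V segment carries the cysteine codon that precedes the joining point. The last 42 bases of well-counted segments are shown to make the differences between segments visible, 5′ to 3′ on the strand of the gene, from the GENCODE M21 annotation and transcripts on GRCm38 (mm10). Capitals mark the motif TGTGC, a TGT cysteine codon followed by GC, where it lies in the last 30 bases. The set holds the 3 Trbv13 segments, Trbv2, the inverted Trbv31, 3 Trav14 segments that end alike, and Trav9-2, which ends without the motif.
Trbv13-2 (chr6:41121791-41121832, plus strand): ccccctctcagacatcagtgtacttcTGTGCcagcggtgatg
Trbv13-1 (chr6:41116427-41116468, plus strand): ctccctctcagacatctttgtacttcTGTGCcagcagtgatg
Trbv13-3 (chr6:41130544-41130585, plus strand): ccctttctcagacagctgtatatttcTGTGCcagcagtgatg
Trbv2 (chr6:41047954-41047995, plus strand): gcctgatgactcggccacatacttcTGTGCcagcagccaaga
Trbv31 (chr6:41557693-41557734, minus strand): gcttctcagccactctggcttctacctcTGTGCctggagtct
Trav14-2 (chr14:53641184-53641225, plus strand): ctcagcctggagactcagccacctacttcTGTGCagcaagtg
Trav14n-3 (chr14:53370534-53370575, plus strand): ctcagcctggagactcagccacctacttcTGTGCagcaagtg
Trav14-1 (chr14:53554517-53554558, plus strand): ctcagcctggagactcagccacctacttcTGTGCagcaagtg
Trav9-2 (chr14:53591473-53591514, plus strand): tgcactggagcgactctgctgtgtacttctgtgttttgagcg
The motif, searched on the sense strand only, was present in the last 30 bases of 130 of 170 members (76.5%) and of 109 of 136 functional members (80.1%). It was present in the last 30 bases of 4231 of 141550 other transcripts (2.99%). Those ends were not limited to coding sequence, so they are no like-for-like comparison. Trbv1, Trav9-2 and Trav3-3, all among the 10 segments of their locus with the most counts, end without these letters. The last 42 bases of Trav14-2, Trav14n-3 and Trav14-1 are identical, whereas the 3 Trbv13 segments can be told apart over the same length.

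V segments together took 756, 4 and 350 counts in replicates 1, 2 and 3. These correspond to 159 CPM (148 to 171), 79.0 CPM (21.5 to 202) and 98.8 CPM (88.7 to 110), and to a mean of 112 ± 41.9 CPM (SD, n = 3). On this scale replicate 1 was higher than replicate 3 with no overlap of the counting intervals, and the interval of replicate 2 contained both values. Beta segments took 574, 4 and 221 counts in replicates 1, 2 and 3, or 121, 79.0 and 62.4 CPM. Alpha segments took 180, 0 and 128 counts, or 38.0 CPM (32.6 to 43.9) in replicate 1 and 36.1 CPM (30.1 to 42.9) in replicate 3. On this scale the alpha intervals overlap and the beta sum was lower in replicate 3, but the size of each difference depended on the scaling, tried with the counts in view. The log2 ratio of replicate 3 to replicate 1 was -0.07 (-0.41 to 0.26) for alpha and -0.96 (-1.19 to -0.73) for beta with library totals, and 0.39 (0.05 to 0.73) and -0.49 (-0.72 to -0.27) with TMM-scaled totals. With DESeq2 size factors it was 0.49 (0.15 to 0.82) and -0.40 (-0.63 to -0.17), and with totals of genes without opposite-strand exons 0.70 (0.36 to 1.03) and -0.19 (-0.42 to 0.04). For all V segments together it was -0.69 (-0.88 to -0.51), -0.23 (-0.41 to -0.04), -0.13 (-0.32 to 0.05) and 0.08 (-0.11 to 0.26) in the same order of scalings, so the lower V sum of replicate 3 was not found with the last 2. Alpha stood above beta in this ratio under each scaling, since the balance of the loci does not depend on the total. Delta segments took 2, 0 and 1 counts, all of Trdv1, and the gamma segment took none. The 348 V segments of the immunoglobulin loci, which B cells use for antibodies, took 2, 0 and 3 counts.

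**Figure D1:**
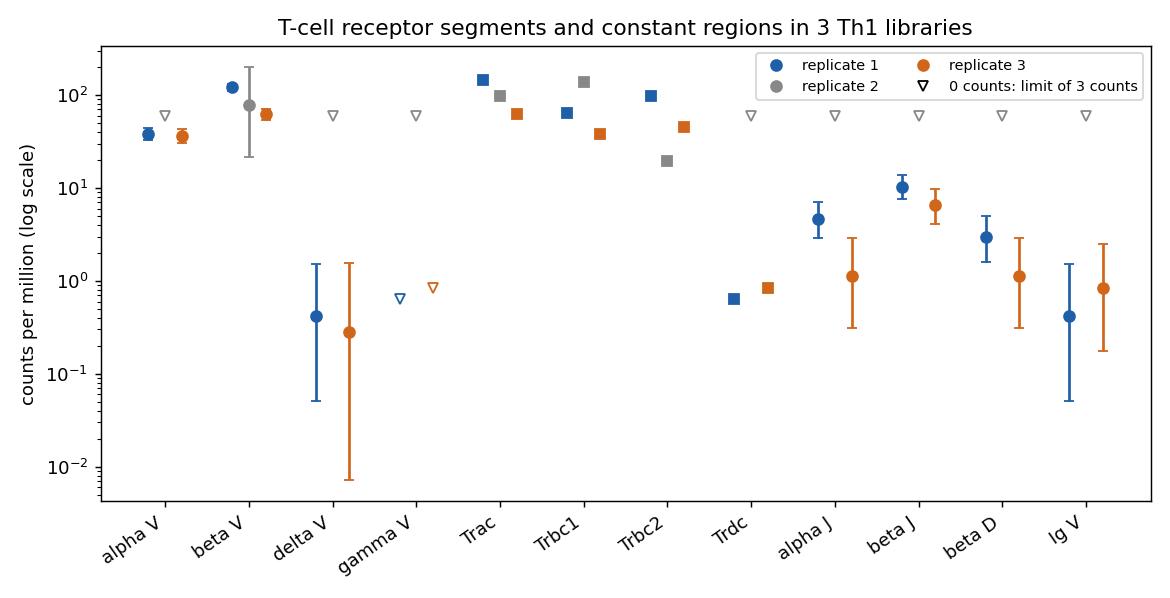
Levels of summed T-cell receptor segments, constant regions and immunoglobulin (Ig) V segments in the 3 libraries, in CPM on a log axis; bars on the summed sets are exact 95% Poisson intervals, squares are single genes without interval, and open triangles stand at the limit of 3 counts for sets with 0 counts. In replicates 1 and 3 the alpha and beta sums stand at 36.1 to 121 CPM, and delta and Ig V sums below 1 CPM.

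The alpha share of V segment counts was 23.8% (20.8 to 27.0) in replicate 1, 0 of 4 counts in replicate 2 and 36.6% (31.5 to 41.9) in replicate 3. The odds of alpha over beta counts were 1.85 times higher in replicate 3 than in replicate 1 (95% interval 1.39 to 2.45; two-sided Fisher's exact test on the counts of these 2 libraries, p = 1.43e-05). That test compares the libraries and no condition. Leaving out the 2 alpha segments that lie fully under exons of an opposite-strand gene gave an odds ratio of 1.51 (1.12 to 2.05; p = 0.00701 by the same exact test). Leaving out the Trav13 family, which was decided on with the counts in view, gave 1.49 (1.09 to 2.03; exact p = 0.00951).

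Of the 170 segments, 80 had at least 1 count in some library and 90 had none in any. Replicate 1 showed 73 segments, replicate 2 showed 2 and replicate 3 showed 60. In replicates 1 and 3, 53 segments were seen in both, 20 in replicate 1 alone and 7 in replicate 3 alone. At the depth of the 350 V counts of replicate 3, replicate 1 was expected to show 57.9 segments against the 60 seen in replicate 3. At the 4 counts of replicate 2, replicates 1 and 3 were expected to show 3.71 and 3.80.

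Beta segments were seen almost throughout the functional part of the locus. Of the 22 functional beta segments 21 had a count, and Trbv21 (chr6:41202550-41203044) was the exception with 0 counts in each library. Of the 13 beta pseudogenes, Trbv6 and Trbv24 had 1 count each, in replicate 1, and the other 11 had none. Beta segments can be counted apart from each other: a median of 100% and at least 98.8% of the 50-base stretches of each beta segment occurred in no other annotated gene, pseudogenes included. Functional means here that the annotation types a segment as a V gene and not as a pseudogene, which does not itself show function. This type was not used to choose the members.

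Trbv13-2 (chr6:41121396-41121832, 340 exonic bases) was the beta segment with the most counts, with 93, 0 and 33 in replicates 1, 2 and 3. That was 16.2% (13.3 to 19.5) of beta counts in replicate 1 and 14.9% (10.5 to 20.3) in replicate 3. Its last exon, which encodes most of the V domain, is printed because this segment led the locus in both deep libraries.
Trbv13-2 (chr6:41121539-41121832, plus strand): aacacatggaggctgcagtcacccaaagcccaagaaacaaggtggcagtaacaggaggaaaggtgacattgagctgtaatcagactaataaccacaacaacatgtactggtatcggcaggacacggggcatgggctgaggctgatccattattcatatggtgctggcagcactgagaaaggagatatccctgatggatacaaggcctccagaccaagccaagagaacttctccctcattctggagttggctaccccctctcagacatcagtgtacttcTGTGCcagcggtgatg
Trbv13-1 followed its neighbour with 57, 0 and 21 counts, and Trbv13-3 had 30, 0 and 14. The 3 members of the Trbv13 family together took 31.4% (27.6 to 35.3) of beta counts in replicate 1 and 30.8% (24.8 to 37.3) in replicate 3, and these intervals overlap.

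The next segments were Trbv2 (chr6:41047340-41047995) with 68, 0 and 12 counts, Trbv19 with 49, 0 and 22, Trbv3 with 50, 0 and 16, and Trbv1 with 43, 0 and 21. Trbv2 was the second highest beta segment in replicate 1, at 14.3 CPM (11.1 to 18.2). In replicate 3 it stood at 3.39 CPM (1.75 to 5.91), below Trbv19 at 6.21 CPM (3.89 to 9.40), although these intervals overlap. Trbv31 (chr6:41557691-41558452) had 40, 0 and 16 counts. It lies on the minus strand beyond the constant regions and joins by inversion, unlike the other beta segments, which lie on the plus strand. Trbv15 had 32, 0 and 10 counts and Trbv12-2 had 18, 3 and 10. The 3 counts of Trbv12-2 and 1 of Trbv17 were all the V counts in replicate 2, too few for a ranking. Trbv12-2 stood at 59.3 CPM (12.2 to 173) there, 3.80 (2.25 to 6.00) in replicate 1 and 2.82 (1.35 to 5.19) in replicate 3. A chi-square test over the 3 libraries called it (adjusted p = 7.4e-07, chi-square test), resting on those 3 counts. The chi-square approximation is poor at counts this low, so that p-value is not reliable and no difference is read from it. Per length, the order changed among the leaders: Trbv13-2 stood at 128 TPM in replicate 1 and 49.2 in replicate 3, Trbv13-1 at 72.7 and 29.1, and Trbv2 at 56.7 and 10.9, where TPM is counts per kb rescaled to the same sum in every library.

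The 5 beta segments with the most counts over all libraries, Trbv13-2, Trbv2, Trbv13-1, Trbv19 and Trbv3, took 55.2% (51.1 to 59.3) of beta counts in replicate 1 and 47.1% (40.3 to 53.9) in replicate 3. The 10 highest took 83.6% and 79.2%. An effective number of equally used segments, the inverse Simpson index, was 11.6 in replicate 1 and 12.97 in replicate 3. Over the 35 beta segments, Pearson's r of log2(count + 1) between replicates 1 and 3 was 0.97, a description over segments that share their libraries.

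**Figure D2:**
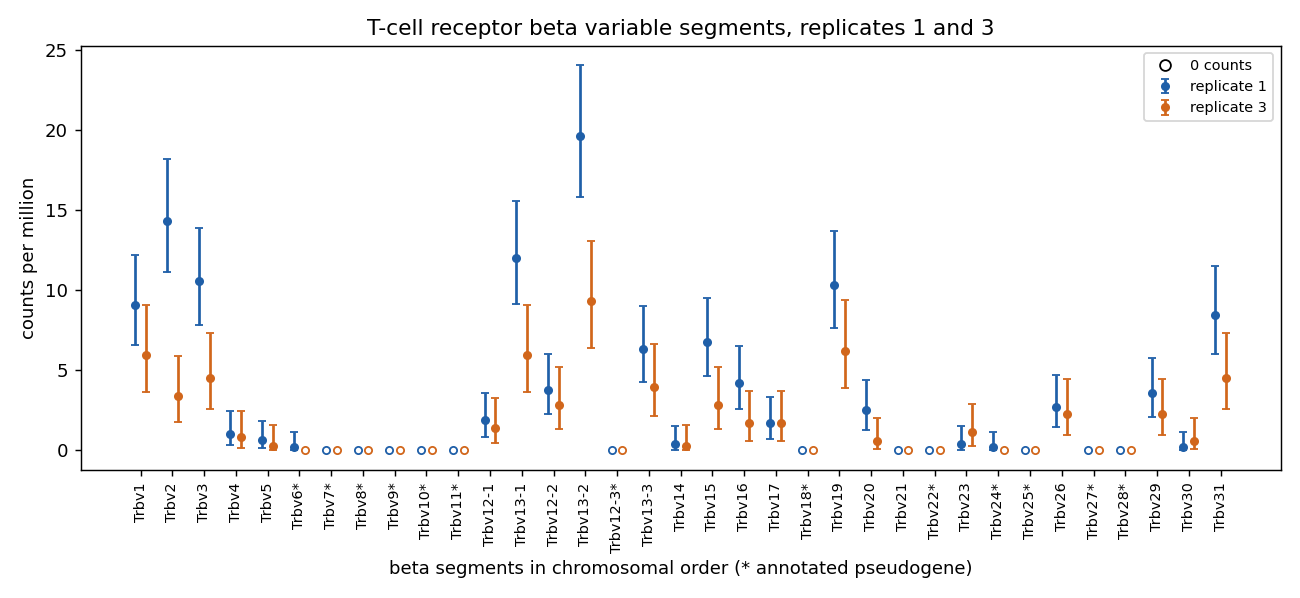
Level of each of the 35 beta segments in chromosomal order in replicates 1 and 3, in CPM with exact 95% Poisson intervals; open circles are 0 counts and asterisks mark annotated pseudogenes. Trbv13-2 is highest in both libraries at 19.6 and 9.31 CPM, and Trbv2 stands at 14.3 CPM in replicate 1 and 3.39 in replicate 3.

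Alpha counts were spread more thinly. Of 128 alpha segments 56 had a count in some library, 49 in replicate 1, 0 in replicate 2 and 38 in replicate 3, and 31 were seen in both replicates 1 and 3. No alpha segment had more than 24 counts over all libraries, against 126 for the highest beta segment. Trav13n-3 had 9, 0 and 15 counts, Trav9-2 had 11, 0 and 8, Trav14-2 had 13, 0 and 5, Trav13d-3 had 1, 0 and 14, and Trav3-3 had 10, 0 and 4. Trav14-2 led in replicate 1 and Trav13n-3 in replicate 3. These 5 took 24.4% (18.4 to 31.4) of alpha counts in replicate 1 and 35.9% (27.7 to 44.9) in replicate 3. The next 5 each had 9 to 12 counts in all. Trav14n-3 had 10, 0 and 2 counts, Trav7-6 had 3, 0 and 9, Trav7-4 and Trav14-1 had 6, 0 and 4 each, and the pseudogene Trav13-3 had 3, 0 and 6. The inverse Simpson index of the alpha segments was 29.2 in replicate 1 and 19.9 in replicate 3. Over the 128 alpha segments, Pearson's r of log2(count + 1) between replicates 1 and 3 was 0.65.

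Position within the alpha locus went with the number of counts. Ordered by distance to the annotated J segments, the 42 nearest alpha segments took 107 counts in replicate 1 and 74 in replicate 3, or 59.4% and 57.8% of alpha counts. The 43 middle segments took 39 and 27, and the 43 farthest 34 and 27. The farther segments include the duplicated copies that carry d or n in their symbols. The 39 d segments took 20 and 28 counts, the 34 n segments 30 and 21, and the 55 others 130 and 79. Sequence shared between copies moves with this pattern: the median share of 50-base stretches found in no other gene was 0% among d and among n segments and 64.6% among the others. Its part in the position pattern was not tested.

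Shared sequence limits what a count of an alpha segment says. Over the alpha segments the median share of unique 50-base stretches was 36.8%, and 41 of 128 had none. Of these 41, only 3 had any count, 17 in all. Of the 75 alpha segments with under 50% unique stretches 53 had no count, against 19 of the 53 at or above it. The headers of the deposited tables list no option for fragments that map to several places, so a count of 0 for such a copy does not show that it was not transcribed. The 3 Trav11 segments, which include the V segment of invariant natural killer T cells, had 0 counts with a median of 0% unique stretches.

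**Figure D3:**
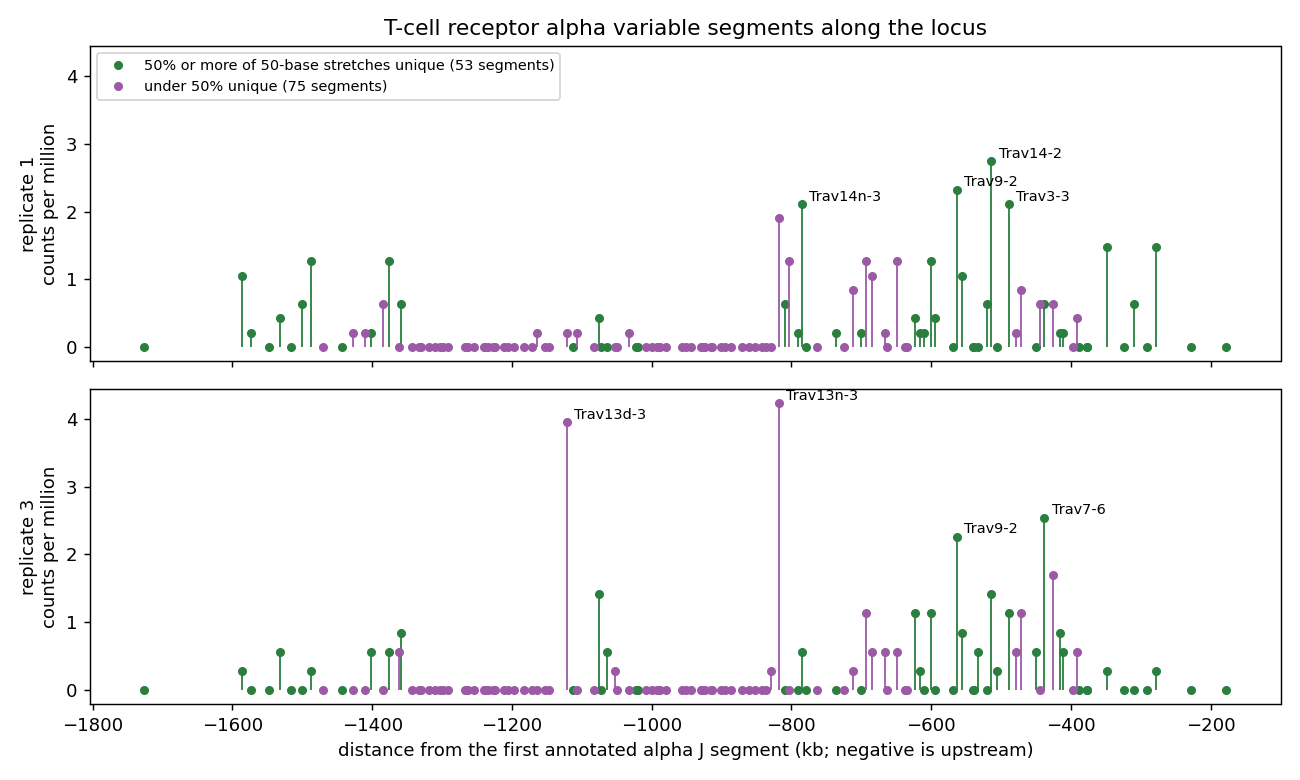
Level of each of the 128 alpha segments against its distance in kb from the first annotated alpha J segment, in CPM, for replicate 1 (top) and replicate 3 (bottom); colour gives whether 50% or more of its 50-base stretches occur in no other gene. Counts gather toward the J segments, and Trav13d-3 and Trav13n-3, both mostly made of shared sequence, stand highest in replicate 3 at 3.95 and 4.23 CPM.

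The Trav13 copies show how close such segments are. Trav13n-3 (chr14:53337122-53337639) and Trav13d-3 (chr14:53032848-53033419) differ over 337 coding bases by 1 substitution, C264T, where positions count from 1 at the first coding base and the base of Trav13n-3 is given first. The pseudogene Trav13-3 (chr14:53729558-53730074) also carries C264T by that numbering and lacks 1 C of a run, at position 81. The stretches around the difference and the run are printed with the differing base and the run in capitals.
Trav13n-3: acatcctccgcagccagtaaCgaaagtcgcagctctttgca
Trav13d-3: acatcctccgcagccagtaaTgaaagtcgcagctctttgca
Trav13-3: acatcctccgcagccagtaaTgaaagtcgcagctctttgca
Trav13n-3: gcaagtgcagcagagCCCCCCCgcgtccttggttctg
Trav13-3: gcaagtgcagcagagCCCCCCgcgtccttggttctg
Trav13d-3 has no unique 50-base stretch, Trav13n-3 17.4% and Trav13-3 14.98%. The 12 segments of the Trav13 family took 18 counts in replicate 1 and 35 in replicate 3, or 10% (6.04 to 15.3) and 27.3% (19.8 to 35.9) of alpha counts. Trav13d-3 and Trav13n-3 also lie with all of their exonic length under exons of opposite-strand genes, Gm30214 and Gm43650. Gm30214 had 0 counts in every library and Gm43650 had 9, 0 and 6.

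V segments were then set against the constant region carried by the same transcript. Trac had 696, 5 and 220 counts, Trbc1 304, 7 and 134, and Trbc2 458, 1 and 160. These genes encode the part of each chain that all receptors share. Per kb, beta V segments stood above the sum of Trbc1 and Trbc2 by a log2 ratio of 0.41 (0.26 to 0.57) in replicate 1 and 0.44 (0.19 to 0.70) in replicate 3. Replicate 2 gave -0.04 (-2.23 to 1.86) from 4 and 8 counts. Alpha V segments stood below Trac in replicate 1, with a log2 ratio of -0.68 (-0.93 to -0.44), and above it in replicate 3, at 0.51 (0.19 to 0.83). Between replicates 1 and 3 the intervals of the beta ratio overlapped and those of the alpha ratio did not. The per kb scale sums the lengths of all annotated segments of the locus. These include 72 alpha and 12 beta segments without a count, so the zero of the scale has no meaning of its own.

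J and D segments are short and gave few counts. The 14 beta J segments took 49, 0 and 23 counts, with all 14 seen, and the 60 alpha J segments 22, 0 and 4, with 19 seen. The J cluster upstream of Trbc2 took 39 and 15 beta J counts in replicates 1 and 3, and that upstream of Trbc1 took 10 and 8. The beta D segments took 14, 0 and 4 counts, and delta and gamma J segments none.

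Cd4 and T-cell markers were counted in each library. Most markers of other lymphocytes were at 0 or had few counts, with Cd8b1 and Cd79a as exceptions. The CD3 chains carry the receptor to the surface and signal for it. Cd3d had 527, 3 and 166 counts, Cd3e 442, 9 and 175, Cd3g 669, 7 and 231, and Cd247, with 56.4% of its exonic length under opposite-strand exons of Pou2f1, 1850, 25 and 1809. Cd4, the coreceptor of helper cells, had 2166, 15 and 858 counts, and Thy1, Cd5 and Cd28, surface proteins of T cells, had 1516, 14 and 615, 1446, 5 and 580, and 450, 6 and 175. Cd4 and these T-cell genes were thus seen in each library, while Cd8a, which defines CD8 T cells, had 0 counts. Markers that set Th1 cells apart from other CD4 T cells were not among the genes listed here. Cd8b1, the other chain of that coreceptor, had 21, 1 and 13 counts.

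Gamma-delta T cells use the other pair of receptor loci. Their constant region Trdc had 3, 0 and 3 counts and Sox13 had 4, 0 and 0, while Blk, Tcrg-V4, Tcrg-V6 and Trdv4 and all 4 gamma constant regions were at 0. Invariant natural killer T cells join Trav11 to Traj18, and of their genes Zbtb16 and Klrb1c were at 0 and Traj18 had 1 count. Rag1 and Rag2, which cut the loci for joining in thymocytes, and the pre-receptor chain Ptcra were at 0, Dntt had 3, 0 and 0 counts and Cd1d1 6, 1 and 2. Of the B-cell markers described here, Ms4a1 and Pax5 were at 0, and Cd79b had 1, 0 and 2 counts. Cd79a, a signalling chain of the B-cell receptor, had 10, 0 and 22 counts, or 6.21 CPM in replicate 3, and was higher there than in replicate 1 by a log2 difference of 1.98 (adjusted p = 0.000473, exact binomial test). Genes that lie in or next to the loci without being receptor segments were also counted. The trypsinogen genes inside the beta locus had 1, 0 and 2 counts, Dad1 beside the alpha locus 115, 1 and 37, and Ephb6 beside the beta locus 18, 0 and 15.

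Replicates 1 and 3 were compared gene by gene to see which segments differed beyond counting error. Counts were tested with an exact binomial test against totals scaled by edgeR's TMM method, with Benjamini-Hochberg adjustment over the 12910 genes with at least 10 counts in these libraries. Of these genes 6268 (48.6%) passed at an adjusted p of 0.05, 2980 (23.1%) higher and 3288 (25.5%) lower in replicate 3, a split that moved with the scaling: 47.5% of calls were higher here, 25.7% with library totals, 57.0% with DESeq2 size factors and 84.2% with totals of genes without opposite-strand exons. Among V segments 25 reached the count minimum and 4 passed, 3 higher and 1 lower, or 16.0% of the segments tested. At least 50 counts were held by 7 of these 25, against 10020 of the 12910 genes. Low counts give the test less power, so the share of V segments passing is not comparable with that of all genes. With library totals 1 V segment was higher and 6 were lower, while 9107 of the 12910 genes passed, 2338 higher and 6769 lower. With DESeq2 size factors 3 were higher and 1 lower, while 5440 genes passed, 3099 higher and 2341 lower. With totals of genes without opposite-strand exons 3 were higher and 1 lower, while 4182 genes passed, 3520 higher and 662 lower.

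Trbv2, with 68 counts in replicate 1 and 12 in replicate 3, was lower in replicate 3 by a log2 difference of -1.57 (adjusted p = 0.000327, exact binomial test). Trav13d-3, with 1 and 14 counts, was higher by 4.16 (adjusted p = 2.03e-05, exact binomial test). Trav13n-3, with 9 and 15 counts, was higher by 1.59 (adjusted p = 0.0204, exact binomial test), and Trav7-6 (chr14:53716716-53717291), with 3 and 9, by 2.32 (adjusted p = 0.0144, exact binomial test). With library totals in place of TMM, which moves the median of all genes from -0.20 to -0.66, Trav13n-3 (adjusted p = 0.0843, exact binomial) and Trav7-6 (adjusted p = 0.0524, exact binomial) no longer passed. With the same totals 5 further beta segments passed as lower in replicate 3 by the exact binomial test: Trbv13-2 (adjusted p = 0.000299), Trbv3 (adjusted p = 0.0045), Trbv13-1 (adjusted p = 0.00936), Trbv15 (adjusted p = 0.0194) and Trbv20 (adjusted p = 0.0463). With library totals 6769 of all 12910 genes passed as lower, and the median of the 25 V segments tested was -0.65, near that of all genes. Trbv2 has no exonic position under an opposite-strand gene, and all of its 50-base stretches are unique. Of the called alpha segments, Trav13d-3 has no unique stretch, Trav13n-3 17.4% and Trav7-6 56.9%. How fragments were divided between the Trav13 copies was not checked, so their single differences are uncertain.

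Opposite-strand overlap moved with the difference between these libraries. Genes with no opposite-strand exons had a median log2 ratio of -0.34 (n = 7905), and 512 of them were called higher in replicate 3. Genes with 90% or more of their exonic length under such exons had a median of 1.26 (n = 265), and 223 of them were called higher. Over all 12910 genes tested 2980 were called higher. The 16 beta segments tested had a median of -0.33, near that of genes without opposite-strand exons, and the 9 alpha segments 0.35. Trav13d-3 and Trav13n-3 lie fully under opposite-strand exons, and Trav7-6 has none. Leaving out Trav13d-3 and Trav13n-3 gave an odds ratio of alpha over beta counts of 1.51 in place of 1.85, as above. The part of the overlap itself in the alpha values was not tested. In the plot of ratios between replicates, Trbv2 at -1.57 and Trbv20 at -1.44 are the lowest of the beta segments.

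**Figure D4:**
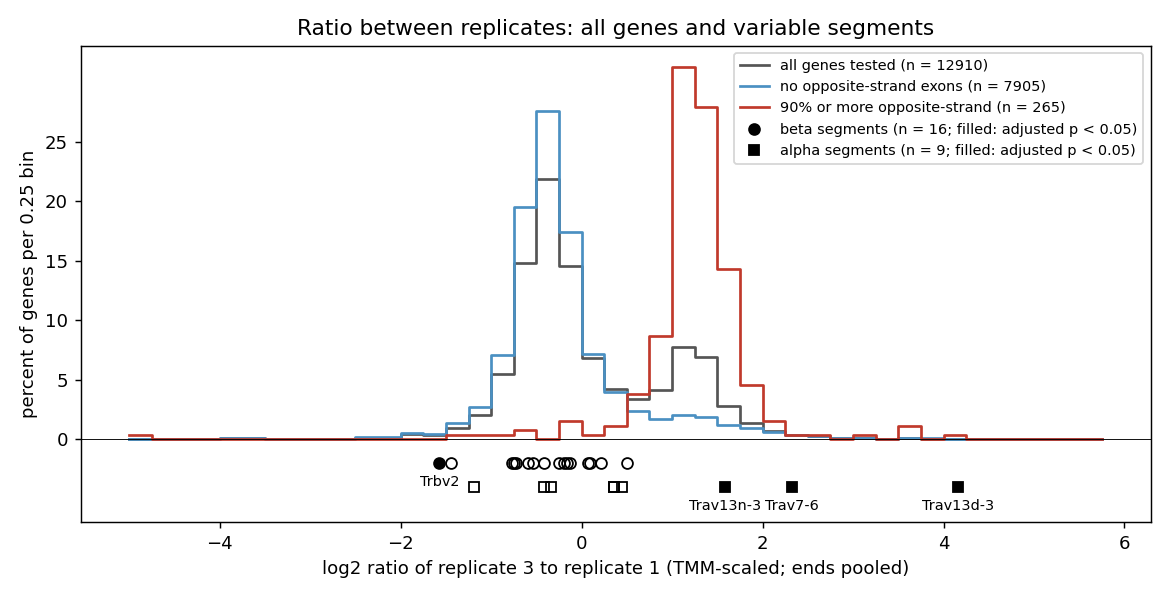
Distribution of the log2 ratio of replicate 3 to replicate 1 over all genes tested and by opposite-strand overlap, in percent of genes per bin, with the 16 beta and 9 alpha segments as points below; filled points passed an adjusted p of 0.05. Genes with 90% or more overlap peak near their median of 1.26 and genes without overlap near -0.34; Trbv2 lies at -1.57 and Trav13d-3 at 4.16.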

How the data were processed

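Whole-number fragment counts per gene were deposited for 3 libraries of 1 group. The counter was featureCounts 1.4.6-p4, run on read pairs over GENCODE M13 exons with strand setting 1, per the file headers. The labels name mm10 as assembly. Neither the library kit nor the aligner's version is given in the sources used here. With strand setting 1, a kit of the other orientation would place fragments on the opposite-strand gene, so levels depend on a setting that was not checked here. The authors' files also give gene lengths, used for TPM.

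Symbols matched for 50376 of 50600 genes, and biotypes, coordinates of exons and sequences came from GENCODE M21. Opposite-strand overlap was computed with bedtools 2.31.1. Unique stretches are 50-base words of a segment's transcript found in no transcript of a gene elsewhere. Sums carry exact Poisson and shares exact Clopper-Pearson 95% intervals. Replicates 1 and 3 were compared by an exact binomial test on totals scaled with edgeR 4.0.16, adjusted by Benjamini-Hochberg; DESeq2 1.42.0 size factors were an alternative. edgeR's quasi-likelihood test had no contrast with 1 group. The test was tried on simulated Poisson counts without added spread between libraries, so that trial does not cover such spread. Software was R 4.3.3, Python 3.11.15, scipy 1.17.1, pandas 2.3.3 and Biopython 1.88.

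Members and marker lists were chosen with earlier results of these data known. Named were the 10 alpha and 10 beta segments with the most counts, delta and gamma segments with a count, segments called between replicates or with opposite-strand exons and a count, Trav11 segments and the marker lists. Promoter motifs and recombination signals were not analysed here, and 1 gene of the lists is not reported here. Alternatives changed scaling, unit, members, filter and test, and left out each replicate in turn.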

Additional observations from a re-analysis of the deposited data

How the results depend on the processing

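The mean level of V segments (112 CPM) was 590 when expressed as TPM, another unit, and 88.9 to 129 CPM without each replicate in turn. Segments detected fell from 80 to 50 at 3 counts or more and were 60 to 80 without each replicate. The mean share of the 10 highest segments in place of 5 was 47.7% for alpha (30.2% for 5) and 79.3% for beta (34.1% for 5, a mean that weighs the 4 counts of replicate 2 like the others). V segments called between replicates 1 and 3 were 4 of 25 in the main run, 7 of 25 with library totals and 1 of 7 with at least 50 counts. A chi-square test over the 3 libraries, an approximation that is poor at the low counts of replicate 2, called 5 of 25. Over all genes the calls were 6268 of 12910, 9107 of 12910, 5851 of 10020 and 5858 of 12910 in the same order. The mean log2 ratio of alpha V segments to Trac was -0.08 per kb and -1.37 in counts. It covers replicates 1 and 3 only, since replicate 2 had no alpha V counts and so no ratio. Per kb it was 0.51 without replicate 1 and -0.68 without replicate 3, each the value of a single library. The mean log2 ratio of beta V segments to Trbc1 plus Trbc2 was 0.27 per kb and -0.61 in counts. No paired analysis was possible because the series has 1 group.

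Small log2 differences between replicates changed sign with the scaling. With library totals Trav14-1 and Trav7-4 went to -0.11, Trav9-2 to -0.016, Trbv12-1 to -0.37, Trbv12-2 to -0.40 and Trbv26 to -0.25. With totals of genes without opposite-strand exons Trbv1 went to 0.17, Trbv13-3 to 0.12, Trbv19 to 0.052 and Trbv29 to 0.15. None of these passed the exact binomial test under the main scaling or under the scaling that changed the sign. A change of totals moves the log2 difference of every gene by the same amount, so differences near 0 change sign. Why the scalings differ was not tested. The alpha against beta difference kept its direction and its side of the threshold in each alternative run. Depth limits single segments: replicate 2 had 4 V counts in all.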
